A study of Drosophila melanogaster with 12 samples.

Results

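The genes described here were silent, or nearly so, in Drosophila S2 cells that carried no BRM plasmid and gave RNA-seq counts in cells that expressed recombinant wild-type BRM. They were chosen by a count rule. It allowed at most 3 counts summed over the 4 libraries labelled empty, called empty-plasmid libraries here. It also required at least 10 counts in each of the 2 libraries of recBRM-V5 cells. Symbols starting with Mtn, Gst, Cpr or Cyp, and ZnT35C, were left out. The rule found 30 of the 12986 genes of the count table, and these 30 are 0.900% of the 3333 genes that were equally silent without a BRM plasmid and lie outside the families left out. Because the recBRM-V5 and empty-plasmid counts chose the genes, those counts are given as a description. The comparisons below that involve them stand beside their background, and nothing is read from a direction that the rule set. The rule did not use the recBRM-K804R-V5 libraries or the ChIP-seq libraries.

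S2 cells are a hemocyte-like line, and every RNA-seq group had 2 biological replicates. The recBRM-K804R-V5 cells carried a plasmid for a BRM whose ATPase is inactive and received dsRNA against BRM. The recBRM-V5 cells carried a plasmid for wild-type recombinant BRM and were given the same dsRNA. The BRM-depleted cells, labelled empty, received dsRNA against BRM, and the control cells, also labelled empty, received dsRNA against GFP. The sample titles do not say whether these cells carried a plasmid, and the paper writes of control S2 cells. Both groups are called empty-plasmid cells here. Each well received 30 μg of dsRNA for 48 h. The recombinant proteins were expressed from a metallothionein promoter in stably transfected lines, and copper sulfate induced them in the last 24 h. The labels do not state whether empty-plasmid cells also received copper, so the recombinant protein, the making of a stable line and copper cannot be told apart in the values below. ChIP-seq measured endogenous BRM in S2 cells, in 2 IP libraries and 2 Input libraries.

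BRM is the ATPase of the SWI/SNF chromatin remodeling complexes of the fly. These complexes slide and evict nucleosomes with energy from ATP, and they are known for opening promoters and enhancers, and at some genes for keeping transcription low. Changing the conserved lysine of the ATP-binding site, as in K804R, removes the ATPase activity but leaves a protein that can still join the complex. Cells of one type keep many genes of other tissues silent, and such genes are useful for reading a change in chromatin because their level without the change is close to 0.

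The libraries held 6600562 to 10287294 counts. The plasmid gene itself, brm, had 2060 and 2006 CPM (counts scaled to a library of 1e6 counts) in recBRM-K804R-V5 cells and 15947 and 23852 CPM in recBRM-V5 cells, against 182 and 181 CPM in BRM-depleted cells and 449 and 448 CPM in control cells. Without a BRM plasmid, each library of BRM-depleted cells held less brm RNA than either control library (edgeR adjusted p = 0.468, Benjamini-Hochberg), and both libraries of the mutant line lay below both libraries of the wild-type line. The counts do not tell brm RNA of the plasmid from that of the endogenous gene. MtnA, a metallothionein that copper induces, had 7227 and 5241 CPM in recBRM-K804R-V5 cells and 6483 and 9746 CPM in recBRM-V5 cells, against 202 to 221 CPM in BRM-depleted cells and 195 to 225 CPM in control cells. Of 11 hemocyte markers all 11 were detected, with a summed level of 9999 to 15764 CPM in recBRM-K804R-V5 cells, 11429 to 15412 CPM in recBRM-V5 cells, 11130 to 12739 CPM in BRM-depleted cells and 9452 to 13358 CPM in control cells. These sums hide single markers: Hml had 95.1 and 29.7 CPM in recBRM-K804R-V5 cells and 243 and 214 CPM in recBRM-V5 cells, against 760 to 1028 CPM in BRM-depleted cells and 815 to 859 CPM in control cells, and NimC1 had 6.80 and 5.61 CPM in recBRM-K804R-V5 cells and 361 and 196 CPM in recBRM-V5 cells, against 1.21 to 2.32 CPM in BRM-depleted cells and 1.84 to 2.85 CPM in control cells. Over the 8 libraries, the summed markers of other cell types ran from 42.5 to 118 CPM for neurons, 43.6 to 90.6 CPM for glia, 26.7 to 65.1 CPM for oocyte and follicle, and 35.9 to 49.3 CPM for the male germline, and fat body and gut markers reached at most 1.47 CPM. Muscle markers summed to 3.79 to 4.47 CPM in recBRM-K804R-V5 cells and 5.94 to 10.5 CPM in recBRM-V5 cells, against 3.03 to 3.19 CPM in BRM-depleted cells and 1.97 to 3.68 CPM in control cells. Markers of epidermis and trachea summed to 2.42 to 3.60 CPM in recBRM-K804R-V5 cells and 13.5 to 15.5 CPM in recBRM-V5 cells, against 4.24 to 5.22 CPM in BRM-depleted cells and 3.68 to 5.04 CPM in control cells. In recBRM-V5 cells that sum was Cpr49Ac alone, with 15.5 and 13.5 CPM, since verm and serp had 0 counts in both libraries. In control cells verm had 1 and 3 counts and serp had 4 and 4. The part of brm level, copper or other cell types in the results below was not tested.

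Of the 30 genes, 29 could be matched by identifier to the Ensembl annotation of the Release 6 assembly, and all 29 are protein coding. FBgn0029128 had no match and is named by its identifier. The DNA just before the annotated start is shown for 6 of them, read from the RefSeq Release 6 genome on the coding strand. DNaseII, SIFaR and ACXA are shown because they had the highest CPM with wild-type BRM, and CG31272, CG14691 and TkR86C because they lie side by side on 3R. Each run is the 150 bases that end at the base before the start. Capitals mark the letters of any of 6 motifs that were searched on both strands. These were the TATA box as TATAAA, the antioxidant response element as TGACNNNGC, and the AP-1 site as TGANTCA. The core of the metal response element was searched in the form TGCACNC and in the other form TGCGCNC, and the core of the heat shock element as GAANNTTC. The first part of the ACXA run also belongs to the end of its neighbour ACXB.
DNaseII, chr3R:18019225-18019374, plus strand: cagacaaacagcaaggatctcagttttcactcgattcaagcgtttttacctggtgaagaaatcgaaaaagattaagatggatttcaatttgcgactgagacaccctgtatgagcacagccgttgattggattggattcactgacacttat
SIFaR, chr3R:21293999-21294148, minus strand: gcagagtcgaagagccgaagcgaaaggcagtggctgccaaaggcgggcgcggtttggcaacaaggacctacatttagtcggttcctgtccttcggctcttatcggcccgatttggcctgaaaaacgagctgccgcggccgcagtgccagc
ACXA, chr2L:12920941-12921090, plus strand: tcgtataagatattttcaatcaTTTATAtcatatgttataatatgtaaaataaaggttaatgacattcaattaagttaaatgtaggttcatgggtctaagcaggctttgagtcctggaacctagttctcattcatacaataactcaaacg
CG31272, chr3R:10759399-10759548, minus strand: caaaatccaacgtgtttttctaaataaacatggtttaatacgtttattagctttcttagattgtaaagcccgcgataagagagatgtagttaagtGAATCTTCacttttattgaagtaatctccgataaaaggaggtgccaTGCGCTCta
CG14691, chr3R:10755635-10755784, minus strand: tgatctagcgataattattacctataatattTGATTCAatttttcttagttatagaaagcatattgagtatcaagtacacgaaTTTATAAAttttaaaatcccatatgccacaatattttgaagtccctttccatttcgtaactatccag
TkR86C, chr3R:10751229-10751378, minus strand: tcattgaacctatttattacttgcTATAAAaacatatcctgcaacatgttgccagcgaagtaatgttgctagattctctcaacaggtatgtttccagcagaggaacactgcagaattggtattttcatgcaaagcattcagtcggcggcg

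The 3 genes with the highest CPM do different jobs and have no searched motif in common in these runs. The runs of DNaseII and SIFaR hold none of the 6 motifs, and the run of ACXA holds TATAAA only on the opposite strand and far from the start. The 3 neighbours on 3R also differ from each other: CG31272 holds a heat shock element core and a metal response element core, CG14691 an AP-1 motif and TATAAA, and TkR86C TATAAA alone. The base composition differs as well, with 60.7% G and C in the SIFaR run and 27.3% in the CG14691 run.

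Over a wider window, 250 bases before to 50 bases after the start, TATAAA was found on either strand in 13 of 29 promoters (44.8%), against 45.8% of 13968 protein-coding genes. On the sense strand in the 50 bases before the start it was found in 5 (17.2%), against 19.7% of silent genes and 10.6% of all protein-coding genes. Those 5 were TotF, Bace, Hsp70Aa, Amnionless and CG31810. The metal response element cores were found in 3 promoters each (10.3%), against 10.4% for TGCACNC and 9.49% for TGCGCNC over all protein-coding genes. The antioxidant response element was found in 1 promoter (3.45%, against 8.62%), AP-1 in 2 (6.90%, against 6.18%) and the heat shock element core in 4 (13.8%, against 9.37%). GAANNTTC and TGANTCA read the same on both strands, and a match is a description of these letters only.

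Levels with wild-type BRM were low to moderate. Per gene, the recBRM-V5 mean ran from 1.25 to 19.5 CPM with a median of 2.38 CPM. Per kilobase of exon, the scale on which genes can be compared with each other, DNaseII stood highest at 15.8 RPKM and gprs lowest at 0.211 RPKM, and 18 genes exceeded 1 RPKM. The counts summed over the 30 genes were 19.1 and 27.0 CPM in recBRM-K804R-V5 cells and 107 and 120 CPM in recBRM-V5 cells, against 0.909 and 1.74 CPM in BRM-depleted cells and 1.64 and 1.23 CPM in control cells. The summed level in the mutant line thus lay between the other groups in both of its libraries. Of the 30 genes, 10 had no count in any empty-plasmid library and 10 had the limit of 3 counts.

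**Figure D1:**
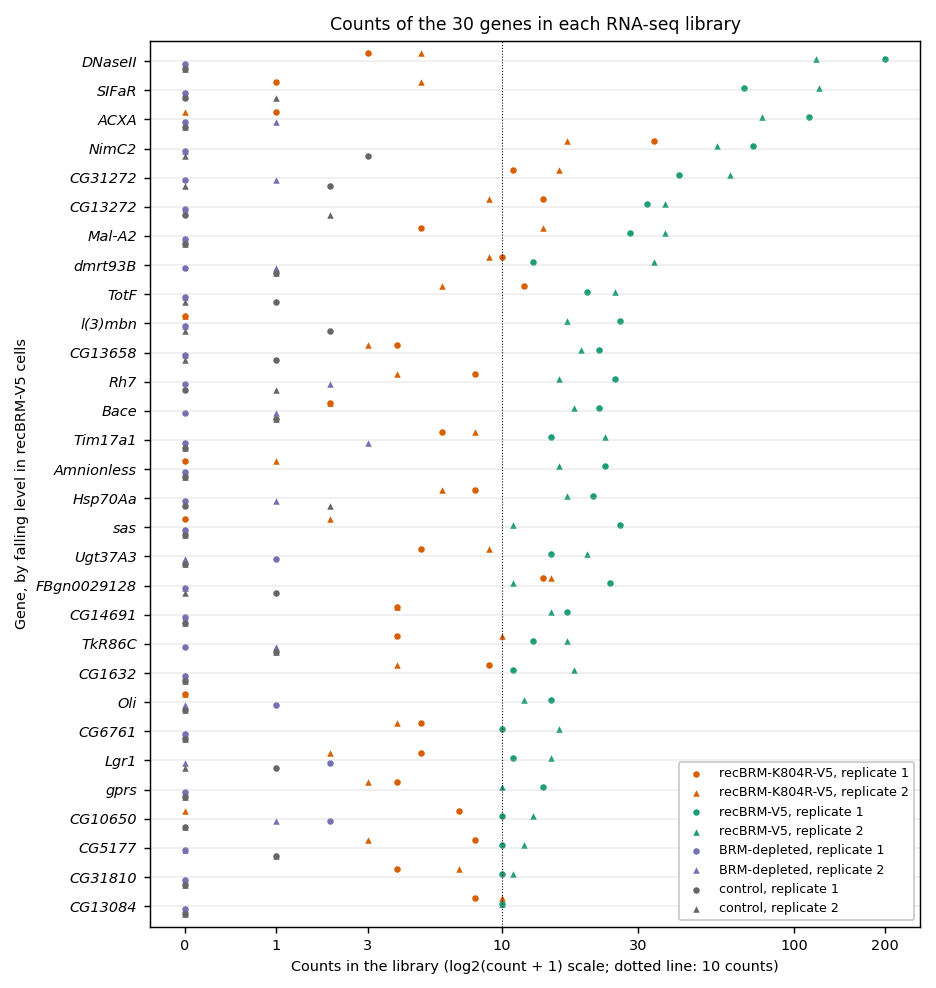
Counts of each of the 30 genes (rows, by falling mean CPM in recBRM-V5 cells) in the 8 RNA-seq libraries, on a log2(count + 1) axis; colors are the groups, circles and triangles are replicates 1 and 2, and the dotted line is 10 counts. The recBRM-V5 points lie at or right of the line because the rule placed them there, whereas both recBRM-K804R-V5 points reach it for 3 genes.

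The gene with the highest level, also per length, was an enzyme. DNaseII, an acid endonuclease that degrades DNA in lysosomes, had 3 and 5 counts in recBRM-K804R-V5 cells and 200 and 118 counts in recBRM-V5 cells, against 0 counts in all 4 empty-plasmid libraries. With the empty-plasmid level set at 3 counts over the pooled libraries, its level was 203-fold higher in recBRM-V5 cells and 4.86-fold higher in recBRM-K804R-V5 cells. These folds leave out the counting error of the recombinant lines, so they are not lower limits. The mutant line therefore held little of the RNA seen with the wild-type protein, and its 2 libraries did not overlap with the recBRM-V5 libraries.

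ACXA, an adenylyl cyclase of a family expressed in the male germline of the fly, had 1 and 0 counts in recBRM-K804R-V5 cells and 112 and 78 counts in recBRM-V5 cells, against 0 and 1 counts in BRM-depleted cells and 0 counts in both control libraries. Its recBRM-K804R-V5 level was at the level of the empty-plasmid cells. Its neighbours on 2L, ACXB, ACXC and ACXE, had at most 5 counts in any library, and ACXD had at most 4. Of 8 measured male germline markers, the summed level was 38.5 and 35.9 CPM in recBRM-K804R-V5 cells and 43.4 and 37.7 CPM in recBRM-V5 cells, against 47.2 and 49.3 CPM in BRM-depleted cells and 41.1 and 37.9 CPM in control cells. ACXA was thus the sole member of the 6 measured ACX genes with at least 10 counts. The summed germline markers of both BRM-depleted libraries lay above those of every other library. Most of that sum is mia, with 25.4 and 23.5 CPM in recBRM-K804R-V5 cells and 27.3 and 23.3 CPM in recBRM-V5 cells. It had 39.2 and 38.4 CPM in BRM-depleted cells and 33.1 and 30.6 CPM in control cells. The order differed for bol, which had 10.98 and 10.15 CPM in recBRM-K804R-V5 cells and 14.8 and 11.2 CPM in recBRM-V5 cells. Its level was 6.06 and 9.43 CPM in BRM-depleted cells and 6.24 and 6.13 CPM in control cells.

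Mal-A2, a maltase, had 5 and 14 counts in recBRM-K804R-V5 cells and 28 and 37 counts in recBRM-V5 cells, against 0 counts in every empty-plasmid library. Its neighbours Mal-A1, Mal-A3 and Mal-A4 stayed at or below 3 counts in all 8 libraries. Ugt37A3, a UDP-glycosyltransferase, had 5 and 9 counts in recBRM-K804R-V5 cells and 15 and 20 counts in recBRM-V5 cells, against 1 count in all empty-plasmid libraries together. Bace, an aspartyl protease related to the mammalian beta-secretases, had 2 and 2 counts in recBRM-K804R-V5 cells and 22 and 18 counts in recBRM-V5 cells, against 0 and 1 counts in BRM-depleted cells and 1 and 1 counts in control cells. Bace lies within Dh31 on the same strand, so reads of the pair may not have been fully separated. Dh31 had 4 and 3 counts in recBRM-K804R-V5 cells and 12 and 5 counts in recBRM-V5 cells, against 3 and 4 in BRM-depleted cells and 1 and 7 in control cells. Among the 5 enzymes none had 10 counts in both mutant libraries.

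Among the 30 were 4 G protein-coupled receptors, a grouping noticed after the values were seen. SIFaR, the receptor of the neuropeptide SIFamide, had 1 and 5 counts in recBRM-K804R-V5 cells and 68 and 121 counts in recBRM-V5 cells, against 0 and 0 counts in BRM-depleted cells and 0 and 1 counts in control cells. TkR86C, a receptor of tachykinin-like peptides, had 4 and 10 counts in recBRM-K804R-V5 cells and 13 and 17 counts in recBRM-V5 cells, against 0 and 1 counts in BRM-depleted cells and 1 and 1 counts in control cells. The receptors differed from each other in the mutant line: SIFaR was close to the empty-plasmid level, whereas one TkR86C library reached 10 counts and its CPM lay within the range of the recBRM-V5 libraries.

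Rh7, a rhodopsin, had 8 and 4 counts in recBRM-K804R-V5 cells and 25 and 16 counts in recBRM-V5 cells, against 0 and 2 counts in BRM-depleted cells and 0 and 1 counts in control cells. Lgr1, a leucine-rich repeat receptor of the glycoprotein hormone type, had 5 and 2 counts in recBRM-K804R-V5 cells and 11 and 15 counts in recBRM-V5 cells, against 2 and 0 counts in BRM-depleted cells and 1 and 0 counts in control cells. The mutant libraries of Rh7 lay between the empty-plasmid and the recBRM-V5 libraries, and for Lgr1 the lower mutant library tied with 1 BRM-depleted library. Neuronal markers summed to 42.5 and 55.9 CPM in recBRM-K804R-V5 cells and 75.7 and 68.1 CPM in recBRM-V5 cells, against 118 and 115 CPM in BRM-depleted cells and 101 and 87.9 CPM in control cells, and VGlut was at 0 in every library. Most of that sum is elav, with 27.2 and 42.9 CPM in recBRM-K804R-V5 cells and 47.4 and 41.8 CPM in recBRM-V5 cells, against 104 and 102 CPM in BRM-depleted cells and 86.5 and 71.0 CPM in control cells. The order differed for brp, a protein of the presynaptic active zone, which had 14.8 and 13.03 CPM in recBRM-K804R-V5 cells and 26.8 and 25.2 CPM in recBRM-V5 cells, against 13.2 and 12.2 CPM in BRM-depleted cells and 14.2 and 16.3 CPM in control cells.

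Cell surface proteins were split. NimC2, a Nimrod protein of the family that includes receptors for phagocytosis, had 34 and 17 counts in recBRM-K804R-V5 cells and 73 and 55 counts in recBRM-V5 cells, against 0 and 0 counts in BRM-depleted cells and 3 and 0 counts in control cells. Amnionless, a membrane partner of the endocytic receptor cubilin, had 0 and 1 counts in recBRM-K804R-V5 cells and 23 and 16 counts in recBRM-V5 cells, against 0 in every empty-plasmid library. The transmembrane protein gene sas had 0 and 2 counts in recBRM-K804R-V5 cells and 26 and 11 counts in recBRM-V5 cells, against 0 in every empty-plasmid library. NimC2 was the one surface protein with clear counts in the mutant line. Amnionless lies within CG3625 on the same strand, and CG3625 had 145 and 72 counts in recBRM-K804R-V5 cells and 67 and 78 counts in recBRM-V5 cells, against 117 and 128 in BRM-depleted cells and 154 and 125 in control cells.

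The stress genes were TotF, a Turandot peptide that flies secrete under stress, and Hsp70Aa, a heat shock chaperone. TotF had 12 and 6 counts in recBRM-K804R-V5 cells and 20 and 25 counts in recBRM-V5 cells, against 0 and 0 counts in BRM-depleted cells and 1 and 0 counts in control cells. Hsp70Aa had 8 and 6 counts in recBRM-K804R-V5 cells and 21 and 17 counts in recBRM-V5 cells, against 0 and 1 counts in BRM-depleted cells and 0 and 2 counts in control cells. The value of Hsp70Aa is uncertain, since it shares nearly all of its sequence with other Hsp70 genes and the counting may have assigned few reads to it. Its neighbouring copy Hsp70Ab, which is not silent, had 204 and 78 counts in recBRM-K804R-V5 cells and 261 and 201 counts in recBRM-V5 cells, against 33 and 46 in BRM-depleted cells and 80 and 54 in control cells.

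Of the transcription factor genes, dmrt93B, of the doublesex-related family, had 10 and 9 counts in recBRM-K804R-V5 cells and 13 and 34 counts in recBRM-V5 cells, against 3 counts in all empty-plasmid libraries together. Oli, a basic helix-loop-helix factor, had 0 counts in both recBRM-K804R-V5 libraries and 15 and 12 counts in recBRM-V5 cells, against 1 count in all empty-plasmid libraries. The blood-cell tumor gene l(3)mbn, named for the phenotype of its mutants, likewise had 0 counts in both recBRM-K804R-V5 libraries and 26 and 17 counts in recBRM-V5 cells, against 0 and 0 counts in BRM-depleted cells and 2 and 0 counts in control cells. These 2 genes were the members with no read in the mutant line. Tim17a1, a homolog of a subunit of the mitochondrial protein import channel, had 6 and 8 counts in recBRM-K804R-V5 cells and 15 and 23 counts in recBRM-V5 cells, against 0 and 3 counts in BRM-depleted cells and 0 counts in both control libraries.

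The other 13 members have no role given here, l(3)mbn among them. CG31272 had 11 and 16 counts in recBRM-K804R-V5 cells and 41 and 61 counts in recBRM-V5 cells, against 0 and 1 counts in BRM-depleted cells and 2 and 0 counts in control cells. CG13272 had 14 and 9 counts in recBRM-K804R-V5 cells and 32 and 37 counts in recBRM-V5 cells, against 2 counts in all empty-plasmid libraries. CG13658 had 4 and 3 counts in recBRM-K804R-V5 cells and 22 and 19 counts in recBRM-V5 cells, against 1 count in all empty-plasmid libraries. In each of the 3 the mutant libraries stood above every empty-plasmid library and below both recBRM-V5 libraries. The least different between the recombinant lines were FBgn0029128, with 14 and 15 counts in recBRM-K804R-V5 cells and 24 and 11 counts in recBRM-V5 cells, and CG13084, with 8 and 10 counts in recBRM-K804R-V5 cells and 10 and 10 counts in recBRM-V5 cells. The 7 others (CG1632, CG6761, CG14691, CG10650, CG5177, CG31810 and gprs) had 0 to 9 counts in each recBRM-K804R-V5 library and 10 to 18 counts in each recBRM-V5 library.

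The recBRM-K804R-V5 libraries, which the rule did not use, show how far the genes were also on with the ATPase-dead protein. Only NimC2, CG31272 and FBgn0029128 had at least 10 counts in both libraries, 6 more had them in one library, and 21 in neither. Applied to all 3333 silent genes outside the families left out, the same limit was met by 7 genes in recBRM-K804R-V5 cells (0.210%). Those 7 are the 3 above and 4 genes that were on in the mutant line without meeting the limit in recBRM-V5 cells. SP2353, one of them, had 110 and 39 counts in recBRM-K804R-V5 cells and 1 and 1 counts in recBRM-V5 cells, against 0 and 0 in BRM-depleted cells and 2 and 1 in control cells. LS2, another, had 19 and 19 counts in recBRM-K804R-V5 cells and 2 and 3 counts in recBRM-V5 cells, and the others were CG8249 and phyl.

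At lower counts the mutant line was above the empty-plasmid cells for most members. In 23 of 30 the CPM of both recBRM-K804R-V5 libraries exceeded all 4 empty-plasmid libraries, so that the groups did not overlap in CPM, against 15.4% of all genes and 8.98% of the silent genes. Some of these separations lie at the counting floor. For Lgr1, 2 counts in a mutant and in a BRM-depleted library gave 0.3030 and 0.3029 CPM, and Bace had 2 counts against 1. The low empty-plasmid side of this comparison was fixed by the rule for the members and the silent genes alike. The 7 without this separation were SIFaR, ACXA, l(3)mbn, Amnionless, sas, Oli and CG10650.

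Of the 30 genes 24 passed the filter on low counts, and 3 would have passed it without the recBRM-V5 libraries, so the 24 are not all members and their passing rests on the group where they are high. In edgeR's quasi-likelihood test over 8165 genes with Benjamini-Hochberg adjustment, 5 of the 24 were called higher in recBRM-K804R-V5 cells than in control cells (20.8%) and none lower, where the background was 6.34% of all tested genes higher and 4.15% lower. At an unadjusted p under 0.05 there were 17 higher and 0 lower, where the background was 1155 of the 8165 tested genes higher. Against BRM-depleted cells, 6 were called higher, where the background was 6.87%. The choice of members held the control side low, and these counts were few enough to depend on single libraries. DESeq2 called 10 of 30 higher than in control cells, where the background was 627 of 12986 genes.

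The 5 called genes were NimC2, FBgn0029128, CG13084, TotF and CG31272, with edgeR adjusted p of 0.0166, 0.0242, 0.0303, 0.0404 and 0.0485. Against the pooled empty-plasmid libraries, the recBRM-K804R-V5 level of NimC2 was 31.0-fold higher with a 95% counting interval of 10.03 to 155. The same ratio was 16.4 (5.05 to 84.5) for CG31272, 32.8 (5.18 to 1367) for TotF and 52.9 (8.77 to 2160) for FBgn0029128. CG13084, with no count in the empty-plasmid libraries, was 10.9-fold higher when that level was set at 3 pooled counts. All 5 were higher in both recBRM-K804R-V5 libraries than in each of the 4 empty-plasmid libraries, whose counts the rule held low. In a fit of only the recBRM-K804R-V5 and control libraries, 3 members passed the filter and 2 were called, NimC2 (adjusted p = 0.0196) and FBgn0029128 (adjusted p = 0.0202), while CG13084, TotF and CG31272 entered the test through the recBRM-V5 libraries. Intervals cover counting error only, and the fold of CG13084 leaves out the counting error of its recBRM-K804R-V5 counts.

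The level in recBRM-K804R-V5 cells was below that in recBRM-V5 cells for all 30 genes when replicates were pooled, and in 27 both mutant libraries lay below both wild-type libraries (17.1% of all genes did so). Choosing genes for counts in recBRM-V5 cells favors this direction, and nothing is read from these counts. The median ratio of recBRM-K804R-V5 to recBRM-V5 CPM was 0.285, with quartiles of 0.112 and 0.381. The ratio was under 0.1 for 8 genes, between 0.1 and 0.5 for 20, and above 0.5 for CG13084 (0.858, 95% counting interval 0.428 to 1.71) and FBgn0029128 (0.790, 0.466 to 1.33). In the same edgeR fit, 8 of the 24 tested genes were called lower in recBRM-K804R-V5 than in recBRM-V5 cells, and 0 higher, where the background was 2.51% of all tested genes lower and 2.23% higher. Without the recBRM-V5 libraries 3 of the 24 would have passed the filter, and the 8 fell to 2 to 4 when any 1 library was left out, so nothing is read from this count either. The brm RNA of the mutant line was also lower than that of the wild-type line (log2 difference -3.33, SE 0.28, edgeR adjusted p = 0.00126), and its part in these ratios was not tested.

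**Figure D2:**
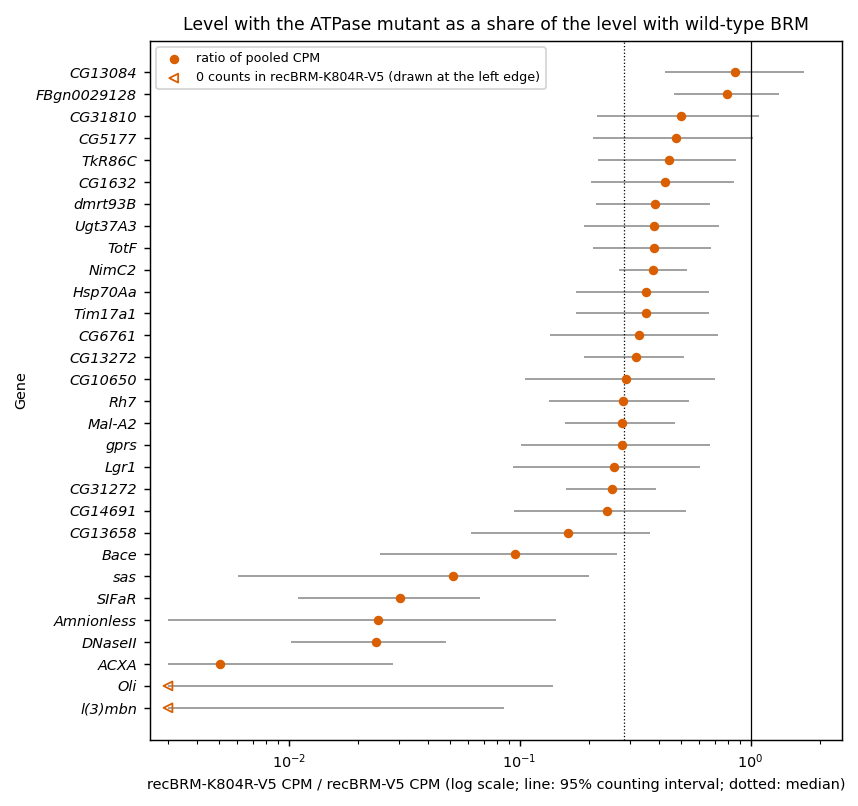
Ratio of the pooled recBRM-K804R-V5 CPM to the pooled recBRM-V5 CPM for each of the 30 genes, on a log axis, with 95% counting intervals as lines cut at the left edge, the median of 0.285 dotted, and 2 genes without a count in recBRM-K804R-V5 cells as open triangles. Most genes lie between 0.1 and 0.5, 8 lie under 0.1, and the intervals of CG13084, FBgn0029128, CG31810 and CG5177 include 1.

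The size of the ratio did not follow one functional group. Among the 5 enzymes it ran from 0.00502 (ACXA) to 0.381 (Ugt37A3), and among the 4 receptors from 0.0303 (SIFaR) to 0.445 (TkR86C). Among the 3 surface proteins it ran from 0.0244 (Amnionless) to 0.380 (NimC2). The 2 stress genes lay close together at 0.381 (TotF) and 0.351 (Hsp70Aa). The groups are too small, and too much chosen after the fact, for a comparison among them.

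The signal of endogenous BRM over these genes was close to the Input. The ChIP-seq values are coverage averaged over the gene and its flanks, and IP/Input was read for the 28 members whose Input signal reached 0.5, which left out Hsp70Aa and FBgn0029128. The median of the mean IP/Input was 0.997 for the members, against 0.962 for all 13557 genes, 1.00 for silent genes and 0.945 for the other genes of the RNA-seq table. At the study's limit of 1.1 for a bound gene, 4 of 28 members passed (14.3%), where the background was 15.6% of all genes, and 24.4% of silent genes passed. The study describes merging its replicates, whereas the mean of the replicate ratios was used here, and single calls differ. Of members in the study's list of BRM-bound targets, DNaseII passed here. Tim17a1 (1.06) and CG31810 (0.910), also in that list, did not pass, and Hsp70Aa was left out for its Input. That list puts DNaseII, Tim17a1 and CG31810 among ATPase-independent increased genes and Hsp70Aa among ATPase-dependent increased ones. Their ratios of recBRM-K804R-V5 to recBRM-V5 CPM here were 0.0240, 0.351, 0.499 and 0.351, in that order. The study's classes rest on a change in the same direction in both lines, not on this ratio. No member passed in both replicates, where the background was 1.37%. Limma on log2(signal + 0.1), fitted without pairing each IP with its own Input, called no gene of the 13557. In that fit, 0 of the 28 members and 6 of all genes had an unadjusted limma p under 0.05. With so few low p-values the fit cannot decide which genes are bound, and nothing is read from the lack of calls. The depth behind each of these values is not in the table, and with 2 replicates an exact unpaired permutation test cannot give a p below 0.333.

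The 4 members at or above 1.1 were Bace, with IP/Input of 1.22 ± 0.56 (SD, n = 2), DNaseII with 1.16 ± 0.21, NimC2 with 1.12 ± 0.36 and CG6761 with 1.102 ± 0.33. In all 4 replicate 2 was the high one: Bace had 0.826 in replicate 1 and 1.62 in replicate 2, and DNaseII had 1.01 and 1.30. For DNaseII the IP signal was 1.71 and 2.26, against an Input signal of 1.69 and 1.74. The lowest members were CG5177 with 0.890 ± 0.036, Rh7 with 0.874 ± 0.097 and ACXA with 0.840 ± 0.035. Over the members the median was 0.910 in replicate 1 and 1.06 in replicate 2, and over silent genes it was 0.908 and 1.08, so the members and the silent genes shared the difference between replicates.

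**Figure D3:**
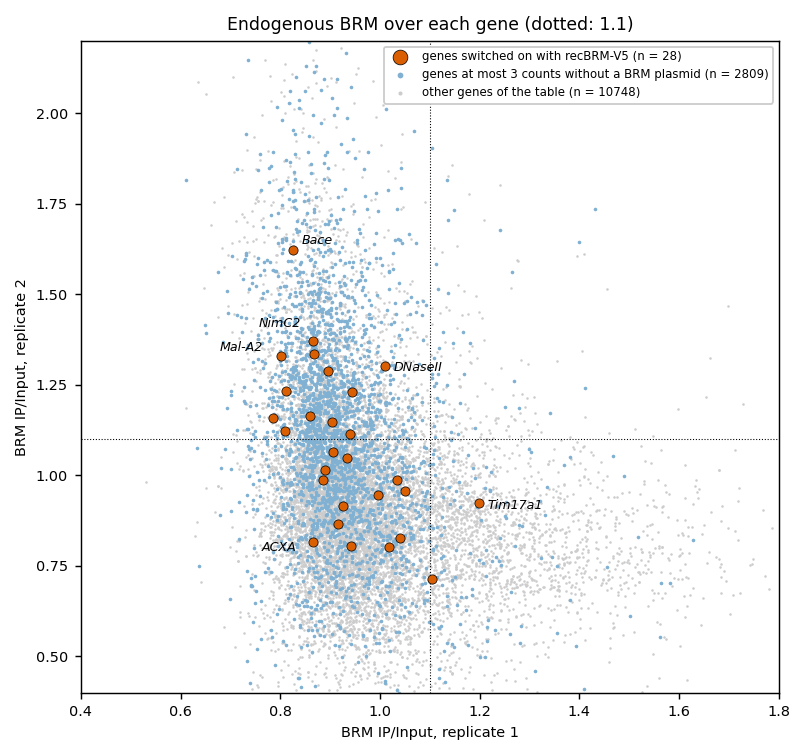
IP/Input of endogenous BRM in replicate 1 (x axis) and replicate 2 (y axis), with 1 point per gene whose Input signal reached 0.5: the members in orange, all genes silent without a BRM plasmid in blue, which include the members, and the other genes in gray; dotted lines mark 1.1, and 147 genes lie outside the axes. The 28 members lie within the cloud of silent genes, and none lies above 1.1 in both replicates.

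The genes were spread over the genome with 1 close group. Of 29 placed members, 12 are on 3R (41.4%, against 24.4% of all genes), 11 on 2L (37.9%, against 18.8%), 3 on 3L, 2 on 2R and 1 on X (3.45%, against 15.97%). Their median exon length was 2036 bases, against 1183 for silent genes and 1765 for all genes, and a longer gene reaches a count limit at a lower level per length. Another counted gene overlapped 9 of the 29 (31.0%, against 40.7% of all genes), 2 of them on the same strand, Bace and Amnionless. The paper describes strand-specific libraries made with a directional kit. Since the strand setting of the counting is not given in the sources used here, reads of opposite-strand partners may still have been mixed.

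TkR86C, CG14691 and CG31272 follow each other on the minus strand of 3R, between 10737592 and 10759398 of Release 6, with 2102 and 661 bases between them. CG14691 had 4 and 4 counts in recBRM-K804R-V5 cells and 17 and 15 counts in recBRM-V5 cells, against 0 in every empty-plasmid library. All 3 had at most 2 counts in any empty-plasmid library and at least 4 in each mutant library, with ratios of recBRM-K804R-V5 to recBRM-V5 of 0.445, 0.238 and 0.252. The next gene on that side, MED7, a subunit of the Mediator complex that lies 672 bases beyond CG31272, had 154 and 106 counts in recBRM-K804R-V5 cells and 110 and 132 counts in recBRM-V5 cells, against 104 and 58 in BRM-depleted cells and 134 and 165 in control cells. The values of MED7 overlapped between the groups. No other members lay within 5 kb of each other, the next closest being CG13272 and CG31810 at 32.9 kb.

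**Figure D4:**
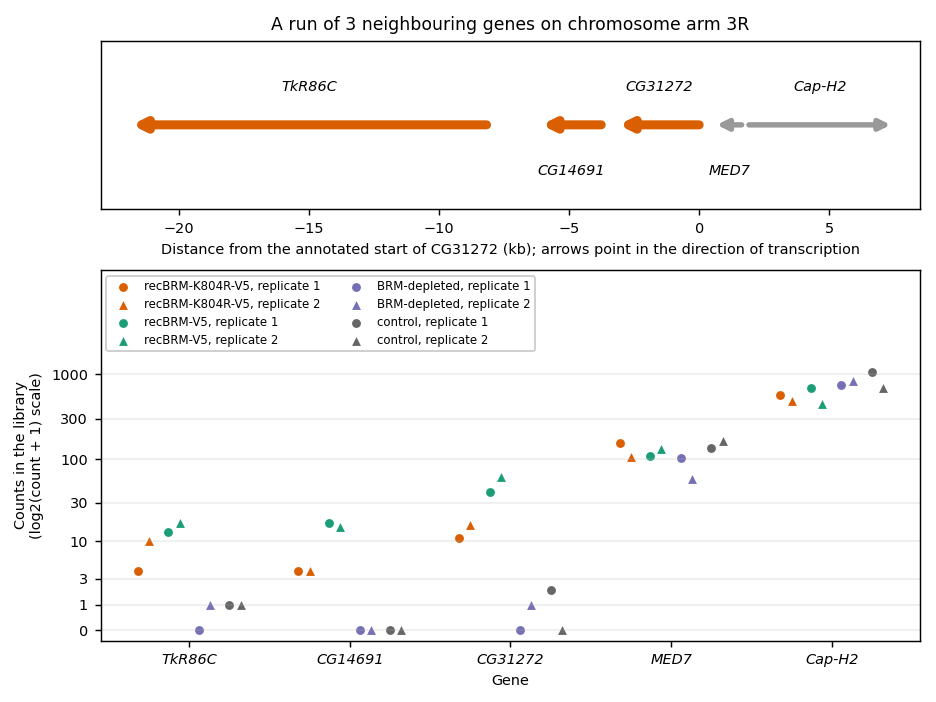
Top, the genes around TkR86C, CG14691 and CG31272 as arrows against the distance from the start of CG31272 in kb, members in orange and the next 2 annotated protein-coding genes in gray. Bottom, counts of the same genes in each of the 8 libraries on a log2(count + 1) axis, by group and replicate: the 3 members have 13 to 61 counts in recBRM-V5 cells and 0 to 2 in empty-plasmid cells, whereas MED7 and Cap-H2 have 58 or more counts in every library.

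Many members had a neighbour that was also higher with wild-type BRM. Within 5 kb, 18 of 29 members (62.1%) had a gene called higher in recBRM-V5 than in control cells, where 10.9% of all tested genes were called higher. The same was true of 15.1% of silent genes, 19.96% of all genes and 40.9% of the 827 other genes called higher in recBRM-V5. Counted per neighbour, 24 of the members' 56 tested neighbours were called higher (42.9%) and 2 lower, against 15.1% of the tested neighbours of silent genes, 10.7% of those of all genes and 24.9% of those of the other genes called higher. Leaving out overlapping genes and neighbours that are themselves members, 14 members (48.3%) had such a neighbour, against 12.1% of silent genes and 37.0% of the other genes called higher. Within 2 kb, 10 members (34.5%) had such a neighbour, against 31.3% of the other genes called higher. These shares are descriptions: neighbours share libraries with the members, and the members were chosen in the same contrast.

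**Figure D5:**
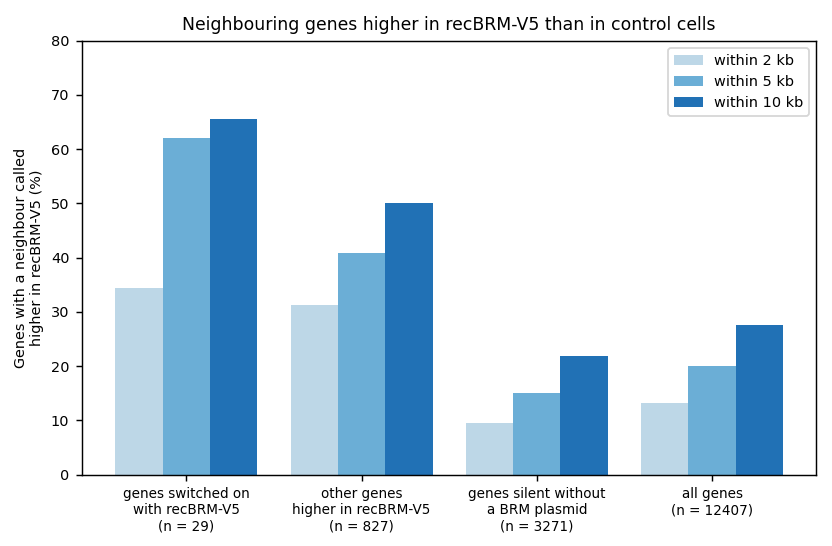
Percent of genes that have at least 1 neighbour called higher in recBRM-V5 than in control cells, within 2, 5 and 10 kb, for the members (29 placed), the 827 other genes called higher, the 3271 silent genes and all 12407 placed genes. The bars of the members are 34.5%, 62.1% and 65.5%, against 31.3%, 40.9% and 50.1% for the other genes called higher, and they lie above those of silent genes at each distance.

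NimC2 is an example. NimC1, the Nimrod receptor for phagocytosis that lies 3356 bases from NimC2, had 70 and 37 counts in recBRM-K804R-V5 cells and 3161 and 1438 counts in recBRM-V5 cells, against 8 and 16 counts in BRM-depleted cells and 26 and 15 counts in control cells. Cyp28a5, a cytochrome P450 gene between them, had 44 and 33 counts in recBRM-K804R-V5 cells and 626 and 558 counts in recBRM-V5 cells, against 1 and 5 counts in BRM-depleted cells and 9 and 5 counts in control cells. In all 3 genes both recBRM-V5 libraries lay above every other library. For NimC2 the rule set this against the empty-plasmid libraries. NimC1 and Cyp28a5 are shown because they were called higher in recBRM-V5 than in control cells, so nothing is read from this separation. On the other side of NimC2, rk, which overlaps it on the opposite strand, had 0 and 0 counts in recBRM-K804R-V5 cells and 3 and 2 counts in recBRM-V5 cells, against 6 and 4 in BRM-depleted cells and 10 and 10 in control cells.

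Other members showed the same arrangement. CG3301, 414 bases from SIFaR on the same strand, had 24 and 8 counts in recBRM-K804R-V5 cells and 92 and 143 counts in recBRM-V5 cells, against 2 and 2 in BRM-depleted cells and 5 and 8 in control cells. The gene cpo, an RNA-binding protein gene that ends 482 bases before DNaseII, had 8 and 4 counts in recBRM-K804R-V5 cells and 119 and 74 counts in recBRM-V5 cells, against 11 and 16 in BRM-depleted cells and 22 and 33 in control cells. Ugt37D1, near CG13272, had 196 and 262 counts in recBRM-K804R-V5 cells and 500 and 569 counts in recBRM-V5 cells, against 10 and 6 in BRM-depleted cells and 15 and 13 in control cells. In all 3 the recBRM-V5 libraries were the highest, and cpo was lower in the mutant line than in control cells (edgeR adjusted p = 0.0270) while Ugt37D1 was higher (0.00121). CG7794, 2545 bases from DNaseII on its other side, had 118 and 39 counts in recBRM-K804R-V5 cells and 81 and 94 in recBRM-V5 cells. It had 6 and 2 in BRM-depleted cells and 7 and 11 in control cells. Unlike cpo, CG7794 was higher than in control cells in the mutant line too (edgeR adjusted p = 0.00979). CG7785, between DNaseII and CG7794, was called in neither line against control cells.

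HHEX, a homeobox gene 63 bases from dmrt93B, had 108 and 27 counts in recBRM-K804R-V5 cells and 34 and 103 counts in recBRM-V5 cells, against 3 and 5 in BRM-depleted cells and 4 and 5 in control cells. Here both recombinant lines overlapped with each other and stood above both empty-plasmid groups. Of the 20 different non-member neighbours called higher, 6 carry symbols starting with Cyp, Gst, Ugt or Cpr. The share of such symbols among all genes called higher was not counted, so nothing is read from these 6. Mal-A2, whose maltase neighbours stayed silent, lies 3881 bases from Cyp4e1, another P450 gene, which had 24 and 62 counts in recBRM-K804R-V5 cells and 147 and 180 counts in recBRM-V5 cells, against 4 and 7 in BRM-depleted cells and 4 and 3 in control cells. ACXA had no tested neighbour within 5 kb, and the tested neighbours of sas, CG10055 and lap, were not called in recBRM-V5 against control cells (edgeR adjusted p = 0.845 and 0.889).

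The limits of the rule were close for many genes. In the lower recBRM-V5 library 6 members had the minimum of 10 counts and 11 had 10 to 12. Just outside on the silent side, 15 genes had 4 or 5 counts over the empty-plasmid libraries and met the other limit, among them Gr63a, a gustatory receptor family gene that senses carbon dioxide, with 18 and 26 counts in recBRM-K804R-V5 cells and 72 and 83 counts in recBRM-V5 cells, against 0 and 1 in BRM-depleted cells and 4 and 0 in control cells. Just outside on the other side, 13 genes had 8 or 9 counts in the lower recBRM-V5 library. The 4 genes that met both limits but belong to families left out were MtnB, MtnD, MtnE and ZnT35C, and MtnD had 755 and 424 counts in recBRM-K804R-V5 cells and 817 and 816 counts in recBRM-V5 cells, against 0 in every empty-plasmid library. In the reverse direction, 13 genes had at most 3 counts over both recBRM-V5 libraries and at least 10 in all 4 empty-plasmid libraries. Between BRM-depleted and control cells none of the members was called in either direction by edgeR, where the background was 0% of all tested genes.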

How the data were processed

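Counts and signal were taken from the deposited tables, with groups from the sample labels. The authors mapped poly(A) RNA-seq reads with TopHat2 to BDGP6 (dm3 in the labels) and counted them per gene with HTSeq, which gave the raw counts deposited. The authors averaged ChIP-seq coverage per gene with ngs.plot after Bowtie 2, so the deposited ChIP-seq values are signal although a count test had been planned. An unpaired limma fit on log2(signal + 0.1) replaced that test. Annotation release, counting options and strand setting are not given in the sources used here. One label names the ChIP-seq table for recBRM-K804R-V5 replicate 2, whose counts were matched by column name.

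Members and lists were chosen with earlier results of these data known. Every member may be named, and per-library counts are given for those with the highest recBRM-V5 level, with counts in recBRM-K804R-V5, with extreme IP/Input, called or close to another member. Values of further members and of neighbours were chosen after they were seen, and so was the grouping by role.

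The main count test was the quasi-likelihood test of edgeR 4.0.16 under R 4.3.3, with TMM scaling, the filterByExpr filter and a single fit of the 8 libraries, and calls were made at a Benjamini-Hochberg adjusted p under 0.05. DESeq2 1.42.0, limma 3.58.1, a replicate block, other filters and leaving out each library were alternatives. CPM used library totals and RPKM the union of exons. Ratios pooled the replicates, with 95% exact intervals, and a level of 0 was set at 3 counts over the pooled group. Positions and neighbours came from the Ensembl annotation of Release 6, whose chromosomes were checked against the RefSeq sequence, and a neighbour lay within 5 kb. The files hold no coordinates.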

Additional observations from a re-analysis of the deposited data

How the results depend on the processing

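The members number 30 under the rule, and 10 with 0 counts allowed over the empty-plasmid libraries, 73 with at least 5 and 8 with at least 20 counts in both recBRM-V5 libraries, and 18 with counts scaled to the mean library size. The members on in both recBRM-K804R-V5 libraries number 11 at 5 counts and 0 at 20 counts, and 6 in either replicate alone. The 5 members higher in recBRM-K804R-V5 than in control cells became 10 with DESeq2, 10 with limma-voom, 13 without a filter, 2 in a fit of only the 4 libraries compared (3 members tested), 0 at an adjusted p under 0.01 and 17 at an unadjusted p, and 0 to 8 when a library was left out. They were 0 without recBRM-K804R-V5 replicate 2 or control replicate 2, 1 without replicate 1 of either group, 3 without either BRM-depleted library and 8 without recBRM-V5 replicate 1. Over these alternatives the adjusted p ran from 1.5e-05 to 0.0703 for NimC2 and from 0.00132 to 0.204 for CG31272, and no log2 fold change of the 5 reversed.

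With a replicate block, 3 members were called in this comparison and 4 in recBRM-K804R-V5 against recBRM-V5. The numbers pair nothing in the labels, and same-numbered deviations of recBRM-K804R-V5 and control libraries correlated at -0.39 over genes, those of recBRM-V5 and control libraries at 0.76 and those of recBRM-K804R-V5 and BRM-depleted libraries at 0.36. With a block added after seeing the data to the fit that calls neighbours, 16 members (55.2%) had a neighbour higher in recBRM-V5, against 38.3% of the other genes called higher and 13.7% of silent genes. A crossed block, added after seeing the data, called 8 and 9. The 8 members lower in recBRM-K804R-V5 than in recBRM-V5 became 5 with DESeq2 and 2 to 4 when any 1 of the 8 libraries was left out. The median ratio ran from 0.244 to 0.349 when a library was left out. For ChIP-seq, the members at or above the limit were 8 after dividing by the median of all genes, 14 at a limit of 1.0, 1 at 1.2, and 2 to 13 in single replicates. TATAAA fell to 17.2% of promoters in the 50-base sense window. Members with a neighbour higher in recBRM-V5 were 10 within 2 kb, a distance chosen after seeing the data. The cause of these differences was not tested, apart from the fewer samples or genes of some fits. Most members rest on 10 to 30 counts, so single libraries decide most calls.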
